A study of Rattus norvegicus with 12 samples.

Results

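The growth factor receptor tyrosine kinases described here were Egfr, Erbb2, Erbb3, Pdgfra, Pdgfrb, Fgfr1, Fgfr2, Met, Axl and Kit. Their transcripts were read from every probe set that the platform annotation assigned to 1 of these symbols alone, which gave 19 probe sets of 10 genes among 31042 probe sets tested, and 4 of the genes had more than 1 probe set. A probe set is a group of short oligonucleotides that together measure 1 transcript on the array, or several transcripts that share the target. Of the 19, 2 had a shared-target design (_s_at) and 4 a common-transcript design (_a_at). The rule picks probe sets by symbol and uses no measured value, although the receptors themselves were chosen with earlier results of these data known.

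F111 is a fibroblast line of the Fischer rat. Tumor cells were cultured out of tumours that had arisen 3 months after F111 cells, first kept in suspension for 16 h (NA16), were injected under the skin of nude mice. A16 cells were F111 cells that had been attached to plastic for 16 h, and they served as the control. Each group had 3 rat expression arrays, namely replicate 1, technical replicate 2 and replicate 2, and because technical replicate 2 was averaged with replicate 1 the comparison rested on n = 2 per group. The labels name no engineered allele in either group. Whether the replicates, biological by their labels, were independent cultures or mice is not stated, and the p-values thus cover the spread between these samples alone. All cells share 1 medium in the labels, but by the methods the explants were kept in more serum. Tumor cells came out of a mouse host, and cells of the host could have been carried along.

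A receptor tyrosine kinase spans the cell membrane, and when its ligand joins a pair of receptors the kinase domains phosphorylate each other and dock adaptor proteins. These pass the signal on through Ras and the ERK kinases and through phosphatidylinositol 3-kinase to genes for growth, survival and movement, and inhibitors made in response dampen the same receptors. Fibroblasts are known for their response to platelet-derived and fibroblast growth factors, and EGF receptor, Met and Axl are well studied for their part in the growth and spread of tumours.

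Values are log2 RMA intensity, and differences are Tumor minus A16 with a moderated standard error (SE) from limma. A probe set was called where limma's adjusted p was under 0.05 and the fold was at least 2. Within a group the arrays correlated at 0.991 to 0.997 over all probe sets. The technical controls of the arrays differed between the groups. Poly-A spikes, added before labelling, averaged 4.82 to 4.92 on Tumor arrays and 7.51 to 7.99 on A16 arrays. Hybridisation spikes went the other way, at 10.91 to 11.18 on Tumor arrays and 9.78 to 10.18 on A16 arrays. The 3′ probe set of beta-actin exceeded the 5′ one by 2.25 to 2.37 on Tumor arrays and by 0.64 to 0.71 on A16 arrays. For Gapdh the same measure differed less, at 0.25 to 0.33 on Tumor arrays and -0.05 to 0 on A16 arrays. No label names a batch, and whatever set these controls apart cannot be told apart from the group in any difference given below.

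None of the 19 receptor probe sets was called, with 0 higher and 0 lower in Tumor cells by limma, beside 11.9% of all probe sets called in either direction (5.51% higher and 6.39% lower). Counting each gene once by its brightest probe set, 0 of 10 receptor genes were called, beside 10.9% of all 14217 genes (5.45% higher and 5.44% lower). Regardless of fold, 4 of 19 receptor probe sets had an unadjusted p under 0.05, beside 41.3% of all, and 2 had an adjusted p under 0.05, beside 31.8% of all. The receptor differences ran between -0.89 and 0.70, with 9 above and 10 below 0, and their median was -0.06 against 0.03 over all probe sets. The 95% interval of the difference lay within 2-fold either way for 16 of 19 receptor probe sets, beside 77.9% of all. The other 3, where a 2-fold difference was not excluded by the interval, were Met, the Fgfr1 probe set 1387498_a_at and the Pdgfrb probe set 1379211_at. With PLIER, the other summary that the authors deposited, 1 receptor probe set was called, that of Met, beside 15.1% of all, and 5 had an adjusted p under 0.05 regardless of fold, beside 35.6% of all. Without moderation of the variance 0 were called, beside 9.99% of all before adjustment and 0.0387% after it.

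**Figure D1:**
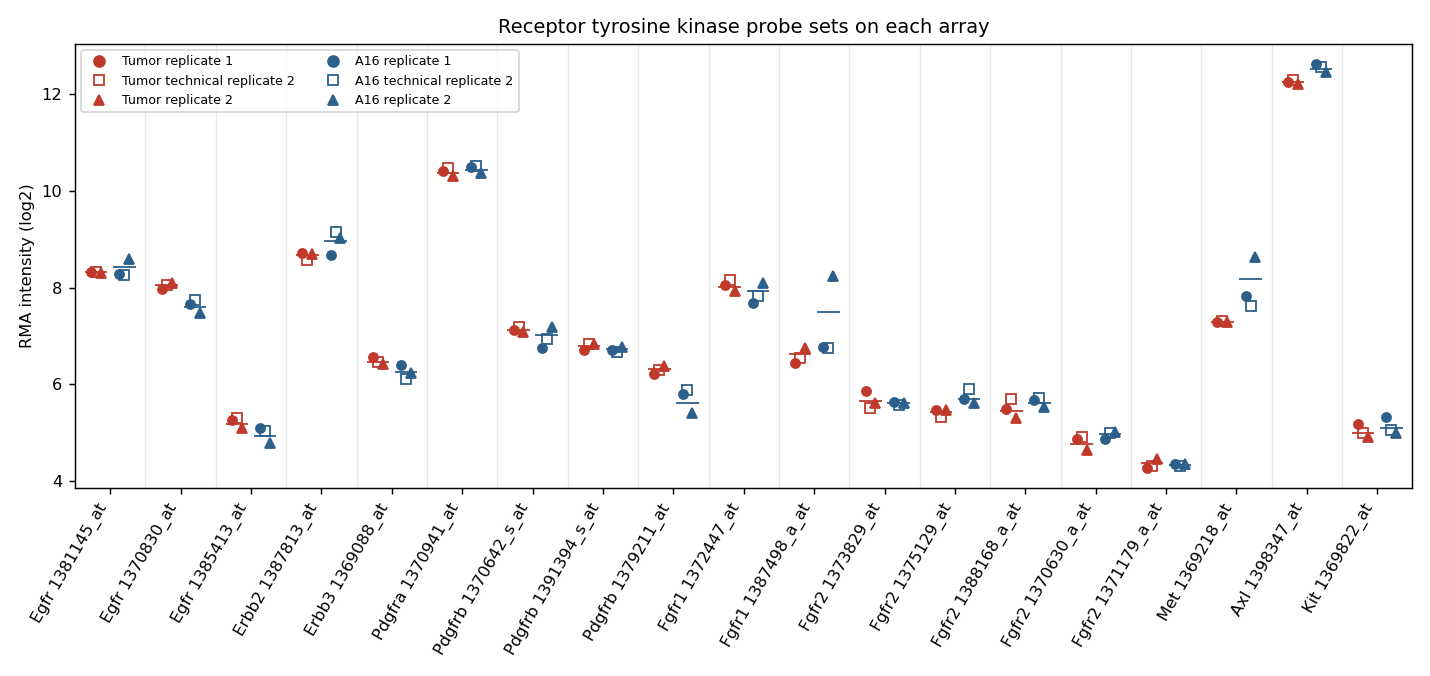
Log2 RMA intensity (vertical axis) of each of the 19 receptor probe sets (horizontal axis) on the 3 Tumor arrays (red) and the 3 A16 arrays (blue), with a bar at the mean of the n = 2 replicates, replicate 1 being averaged with technical replicate 2. The arrays of the groups lie close together for most probe sets, and A16 replicate 2 stands above the other A16 arrays for Met (8.63) and for the Fgfr1 probe set 1387498_a_at (8.24).

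Egfr encodes the EGF receptor, which binds EGF, TGF alpha, amphiregulin and related ligands. Its brightest probe set, 1381145_at, had 8.33, 8.33 and 8.31 on the Tumor arrays (replicate 1, technical replicate 2 and replicate 2, the order kept throughout), against 8.29, 8.25 and 8.59 on the A16 arrays. The 3 Tumor arrays lay between the A16 arrays. The difference was -0.11 ± 0.14 (SE, n = 2 per group), with a 95% interval of -0.45 to 0.23 and limma's adjusted p = 0.618. The probe set 1370830_at had 7.97, 8.05 and 8.09 on the Tumor arrays, against 7.65, 7.75 and 7.48 on the A16 arrays. Here every Tumor array lay above every A16 array. The difference was 0.46 ± 0.13, with an interval of 0.16 to 0.76 and limma's adjusted p = 0.0333, a fold of 1.37 that stayed short of the call. With PLIER it was 0.40, and the adjusted p was no longer passed (limma, 0.0815). The third Egfr probe set, 1385413_at, had 5.25, 5.31 and 5.09 on the Tumor arrays, against 5.10, 5.03 and 4.78 on the A16 arrays. It overlapped between the groups, at a difference of 0.26 ± 0.14 (limma's adjusted p = 0.226), and its mean lay in the lowest 30% of probe sets. With PLIER the same probe set had 5.49, 5.75 and 5.46 on the Tumor arrays, against 4.89, 4.58 and 4.94 on the A16 arrays, which did not overlap, and the difference was 0.71 (limma's adjusted p = 0.0127).

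The Egfr difference was thus below 0 by 1381145_at and above 0 by 1370830_at and 1385413_at. For 1381145_at and 1385413_at, however, the 95% interval held 0. The difference between probe sets was tested directly, as the change of 1 probe set less the change of the brightest one of the same gene. For 1370830_at it was 0.57 ± 0.22, with a 95% interval of 0.01 to 1.13, and it did not pass (limma's adjusted p = 0.0983). For 1385413_at it was 0.37 ± 0.24 (limma's adjusted p = 0.274). Of the 9 such pairs among the receptors 0 passed an adjusted p of 0.05, beside 37.2% of 6609 pairs over the whole table, and 1 had an unadjusted p under 0.05, beside 49% of them. Taken as the mean of its 3 probe sets, Egfr differed by 0.20 ± 0.11 (limma's adjusted p = 0.177).

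Erbb2 encodes the partner receptor of the EGF receptor family, which binds no ligand of its own. It had 8.72, 8.56 and 8.69 on the Tumor arrays, against 8.67, 9.14 and 9.03 on the A16 arrays. Technical replicate 2 and replicate 2 of A16 were high, while A16 replicate 1 lay among the Tumor arrays. The difference was -0.31 ± 0.11, with a 95% interval of -0.58 to -0.03 and limma's adjusted p = 0.0881. Erbb3, which binds neuregulins and has a weak kinase of its own, had 6.57, 6.45 and 6.41 on the Tumor arrays, against 6.39, 6.10 and 6.24 on the A16 arrays. All Tumor arrays lay above all A16 arrays, though the nearest ones almost touched. The difference was 0.22 ± 0.11, with an interval of -0.05 to 0.48 (limma's adjusted p = 0.198).

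Pdgfra and Pdgfrb encode the alpha and beta receptors for platelet-derived growth factor, which drive the growth and migration of mesenchymal cells. Pdgfra had 10.42, 10.47 and 10.30 on the Tumor arrays, against 10.49, 10.51 and 10.37 on the A16 arrays. The groups overlapped, with a difference of -0.06 ± 0.12 and a 95% interval of -0.35 to 0.23 (limma's adjusted p = 0.763). The brightest Pdgfrb probe set, 1370642_s_at, had 7.12, 7.18 and 7.08 on the Tumor arrays, against 6.74, 6.94 and 7.18 on the A16 arrays. These also overlapped, at 0.10 ± 0.14 (limma's adjusted p = 0.649), and so did the probe set 1391394_s_at, at 0.08 ± 0.11 (limma's adjusted p = 0.648). The probe set 1379211_at had 6.21, 6.30 and 6.38 on the Tumor arrays, against 5.79, 5.89 and 5.40 on the A16 arrays. Every Tumor array lay above every A16 array. The difference of 0.70 ± 0.17, with an interval of 0.30 to 1.11, was the highest among the receptors, and it passed the adjusted p (limma, 0.0201) at a fold of 1.63 that stayed short of the call. Its change exceeded that of the brightest Pdgfrb probe set by 0.60 ± 0.29, which did not pass (limma's adjusted p = 0.153). The Pdgfrb mean over 3 probe sets differed by 0.30 ± 0.11 (limma's adjusted p = 0.0595).

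Fgfr1 and Fgfr2 encode receptors for fibroblast growth factors, of which Fgfr1 is the form best known in mesenchymal cells. The brightest Fgfr1 probe set, 1372447_at, had 8.05, 8.16 and 7.93 on the Tumor arrays, against 7.67, 7.83 and 8.10 on the A16 arrays. The groups overlapped, with a difference of 0.09 ± 0.15 (limma's adjusted p = 0.699). The other Fgfr1 probe set, 1387498_a_at, had 6.44, 6.54 and 6.74 on the Tumor arrays, against 6.76, 6.74 and 8.24 on the A16 arrays. All Tumor arrays lay below the A16 arrays, but only A16 replicate 2 stood clearly apart, by 1.49 above the mean of the other A16 arrays. The difference was -0.88 ± 0.43, with a 95% interval of -1.92 to 0.17 (limma's adjusted p = 0.184). With A16 replicate 2 left out it was -0.13, and it was -1.62 with A16 replicate 1 left out. The difference between the Fgfr1 probe sets was -0.97 ± 0.40 (limma's adjusted p = 0.108).

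The 5 Fgfr2 probe sets were dim on every array with RMA, between 4.27 and 5.90. The brightest, 1373829_at, had 5.86, 5.50 and 5.61 on the Tumor arrays, against 5.63, 5.56 and 5.62 on the A16 arrays, a difference of 0.04 ± 0.11 (limma's adjusted p = 0.836). With PLIER it had 7.59, 7.49 and 7.28 on the Tumor arrays, against 6.90, 6.51 and 6.86 on the A16 arrays, and differed by 0.62 (limma's adjusted p = 0.0235), so that the summaries did not give the same picture. With RMA the groups overlapped for 4 of the 5 probe sets. The exception, 1375129_at, had 5.46, 5.33 and 5.47 on the Tumor arrays, below 5.70, 5.90 and 5.61 on the A16 arrays, at -0.27 ± 0.12 (limma's adjusted p = 0.148). The RMA differences of the other 3 were -0.21, -0.17 and 0.04. For 1370630_a_at, at -0.21 ± 0.13 with RMA, PLIER gave 0.53 ± 0.13, so that its direction depended on the summary.

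**Figure D2:**
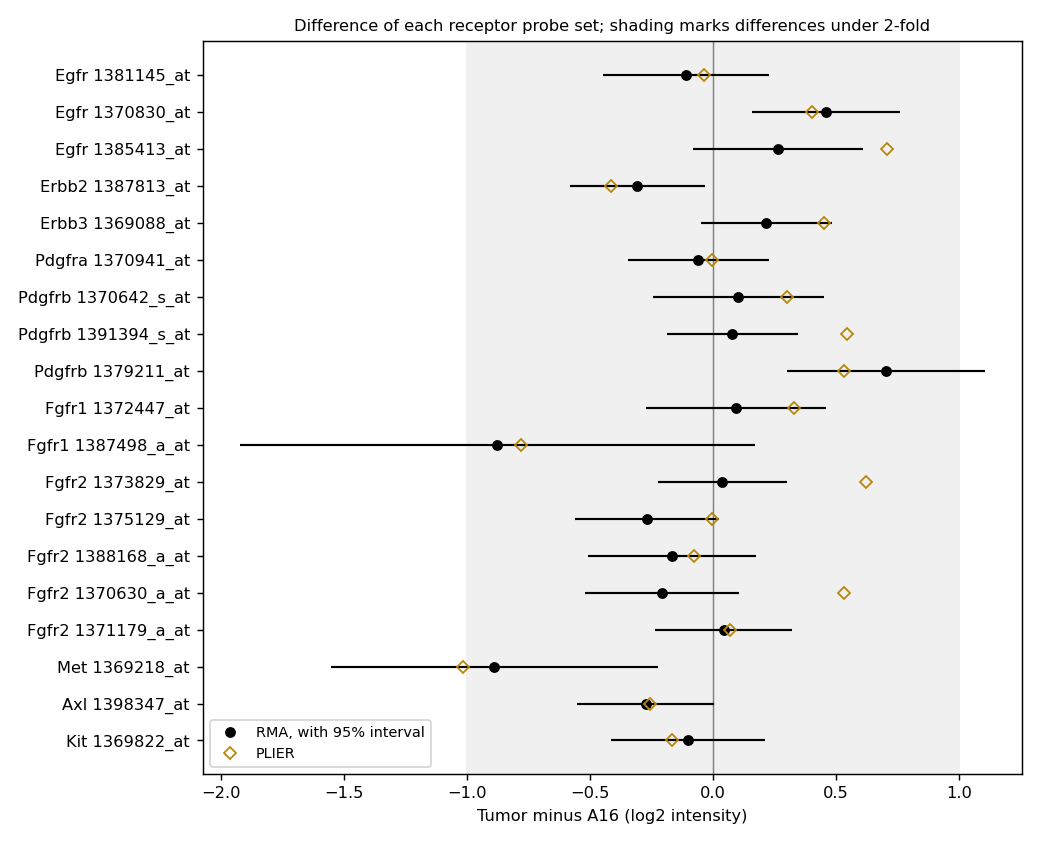
Tumor minus A16 difference in log2 intensity (horizontal axis) for each receptor probe set (vertical axis), as RMA values with 95% intervals from limma (black) and PLIER values (open diamonds), n = 2 per group. Shading marks differences under 2-fold, which holds every RMA value, between -0.89 and 0.70, and all PLIER values except that of Met at -1.02.

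Met encodes the receptor for hepatocyte growth factor, a ligand that prompts cells to scatter and migrate. It had 7.28, 7.31 and 7.28 on the Tumor arrays, against 7.83, 7.61 and 8.63 on the A16 arrays. Every Tumor array lay below every A16 array, and A16 replicate 2 was the highest by a wide margin. The difference was -0.89 ± 0.28, the lowest among the receptors, with a 95% interval of -1.55 to -0.23, a fold of 1.85 and limma's adjusted p = 0.0511, so that both parts of the call were narrowly missed. With PLIER it was -1.02 ± 0.30 and was called (limma's adjusted p = 0.04). The A16 replicates differed from each other by 0.91, as much as the groups did. When A16 replicate 2 was left out the difference was -0.43 (limma's adjusted p = 0.0334), and when A16 replicate 1 was left out it was -1.34 (limma's adjusted p = 1.67e-05). Direction held in each case while the size moved by more than 1.5 times.

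Axl encodes a receptor of the TAM family, which binds Gas6. It had 12.25, 12.30 and 12.21 on the Tumor arrays, against 12.62, 12.56 and 12.45 on the A16 arrays. All Tumor arrays lay below all A16 arrays, with a difference of -0.27 ± 0.12 and a 95% interval of -0.55 to 0.01 (limma's adjusted p = 0.127). Kit, the receptor for stem cell factor that marks mast cells and melanocytes, had 5.17, 4.99 and 4.91 on the Tumor arrays, against 5.32, 5.06 and 4.99 on the A16 arrays. The groups overlapped in the lowest 30% of probe sets, at -0.10 ± 0.13 (limma's adjusted p = 0.622). Neither group gave a Kit signal that stood out from the floor of the array.

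Across the 19 receptor probe sets, the 3 Tumor arrays lay wholly on 1 side of the 3 A16 arrays for 7, with 3 above and 4 below, beside 52.6% of all probe sets. The 3 above were 1 probe set each of Egfr, Erbb3 and Pdgfrb, and the 4 below were Met, Axl and 1 probe set each of Fgfr1 and Fgfr2. For 9 of 19 the gap between the A16 replicates was larger than the difference between the groups, beside 34.4% of all probe sets. A gap of over 2-fold between the A16 replicates was seen for 1, that of Fgfr1, beside 1.18% of all, and between the Tumor replicates for none. Fewer cells of a type and less RNA per cell cannot be told apart in such bulk samples.

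**Figure D3:**
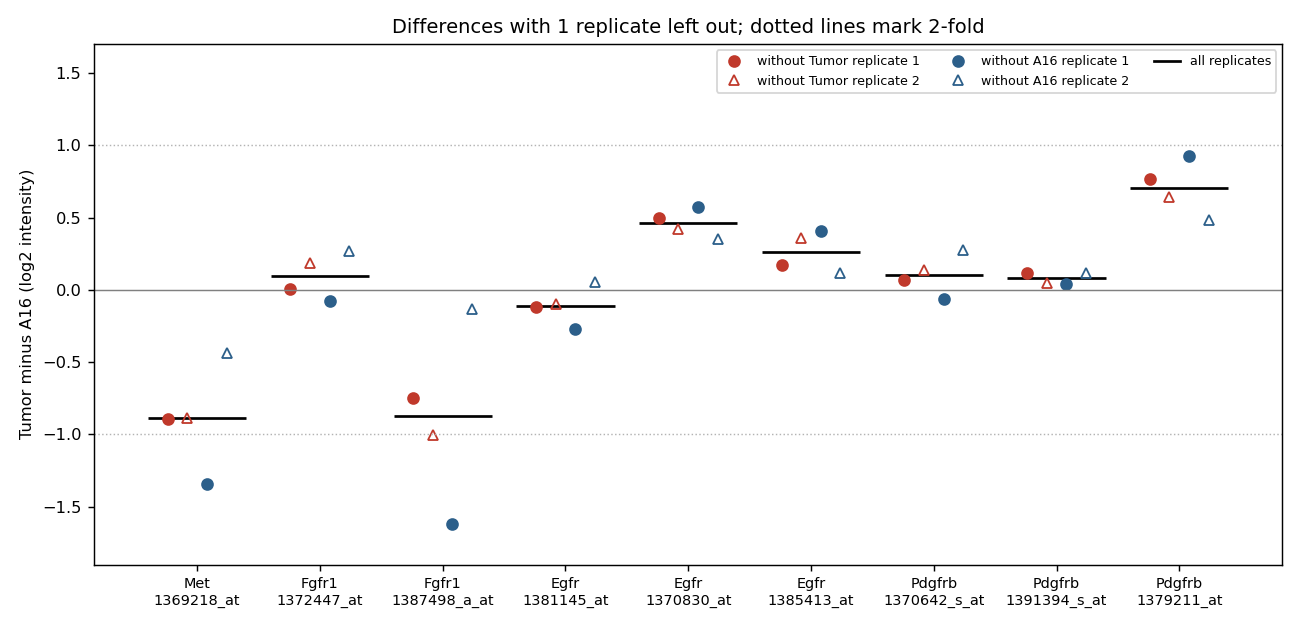
Tumor minus A16 difference in log2 intensity (vertical axis) of the 9 probe sets of Met, Fgfr1, Egfr and Pdgfrb (horizontal axis) with all replicates (black line) and with 1 replicate left out (red, Tumor; blue, A16). Leaving out A16 replicate 2 brought Met to -0.43 and the Fgfr1 probe set 1387498_a_at to -0.13, and leaving out A16 replicate 1 brought them to -1.34 and -1.62.

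The ligands of these receptors gave calls in both directions. Of 27 listed ligand genes 24 were measured, and by the brightest probe set 3 were higher and 3 lower in Tumor cells (25% of the list, beside 10.9% of all genes), with a median difference of -0.03 against 0.03 over all genes. Areg encodes amphiregulin, a ligand of the EGF receptor. It had 9.75, 9.70 and 9.71 on the Tumor arrays, against 6.16, 6.39 and 5.90 on the A16 arrays, a rise of 3.63 ± 0.15 or 12.4-fold (limma's adjusted p = 2.61e-05). Hgf, the ligand of Met, had 7.50, 7.35 and 7.44 on the Tumor arrays, against 5.57, 5.60 and 5.58 on the A16 arrays. It rose by 1.85 ± 0.11 or 3.6-fold (limma's adjusted p = 8.11e-05), while the Met probe set itself was lower on every Tumor array. Both ligands were separated from the A16 arrays by far more than the spread within a group.

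Hbegf, another ligand of the EGF receptor, fell to 8.83, 8.58 and 8.75 on the Tumor arrays, against 10.21, 10.18 and 10.73 on the A16 arrays, a difference of -1.74 ± 0.19 (limma's adjusted p = 0.000866). The ligands of 1 receptor thus moved in opposite directions, with Areg up and Hbegf down. Its other listed ligands were not called by their brightest probe sets. Tgfa at 0.945 and Egf at 0.886 lay higher on every Tumor array, Btc at -0.585 lay lower on every one, and Ereg overlapped at 0.123. Fgf1, a ligand of the fibroblast growth factor receptors, fell to 6.55, 6.86 and 6.68, against 8.13, 8.34 and 8.34 on the A16 arrays, at -1.60 ± 0.11 (limma's adjusted p = 0.000172), and its other probe sets gave -1.24 and -1.65. The remaining called ligands, named after their values were seen, were Kitlg, the ligand of Kit, at 1.57 ± 0.11, and Pdgfa, a ligand of the platelet-derived growth factor receptors, at -1.40 ± 0.27. The 3 other Kitlg probe sets, at 0.44, 0.07 and 0.14, were not called. Gas6, the ligand of Axl, was at 0.01 ± 0.13 by its brightest probe set, with the other probe sets at 0.70 and -0.92, so that no direction can be given for it. Nrg1, a ligand of Erbb3, likewise had -0.04 by its brightest probe set, with 1 of its 8 probe sets called higher at 1.45 and 1 called lower at -1.08.

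Among 38 of 44 other listed receptor tyrosine kinases that could be measured, 2 were called higher and 5 lower in Tumor cells (18.4% of the list, beside 10.9% of all genes), with a median of -0.10. Csf1r, the receptor for macrophage colony-stimulating factor, had 8.59, 8.54 and 8.62 on the Tumor arrays, against 5.67, 5.58 and 5.29 on the A16 arrays, a rise of 3.14 ± 0.14 or 8.81-fold (limma's adjusted p = 3.32e-05). Flt1, a receptor for vascular endothelial growth factor, rose by 2.32 ± 0.11 on its brightest probe set, whereas the other 2 probe sets were dim and at -0.05 and 0.20. Ephb4, a receptor for the membrane-bound ephrins, fell to 5.34, 4.94 and 5.07 on the Tumor arrays, against 8.83, 8.94 and 9.94 on the A16 arrays, at -4.31 ± 0.31. Ptk7, a receptor with an inactive kinase that takes part in Wnt signalling, fell to 6.53, 6.99 and 6.82, against 10.87, 10.99 and 10.56 on the A16 arrays, at -3.96 ± 0.15. The other called receptors, all lower and named with their values known, were Fgfr3 at -2.18, a relative of Fgfr1 and Fgfr2, Tyro3 at -1.30, a TAM receptor like Axl, and Flt4 at -1.27. The differences of the members, none beyond 0.89 in size, were thus small beside those of Csf1r, Ephb4 and Ptk7, a statement on differences and not on levels. Those comparators were picked for their size. By the brightest probe set 31 of the 38 other receptors were not called, and the list median of -0.10 lay near the -0.08 of the member genes. Ddr1 and Ddr2, not called by their brightest probe sets, each had a dimmer one called lower, at -2.60 and -1.75.

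**Figure D4:**
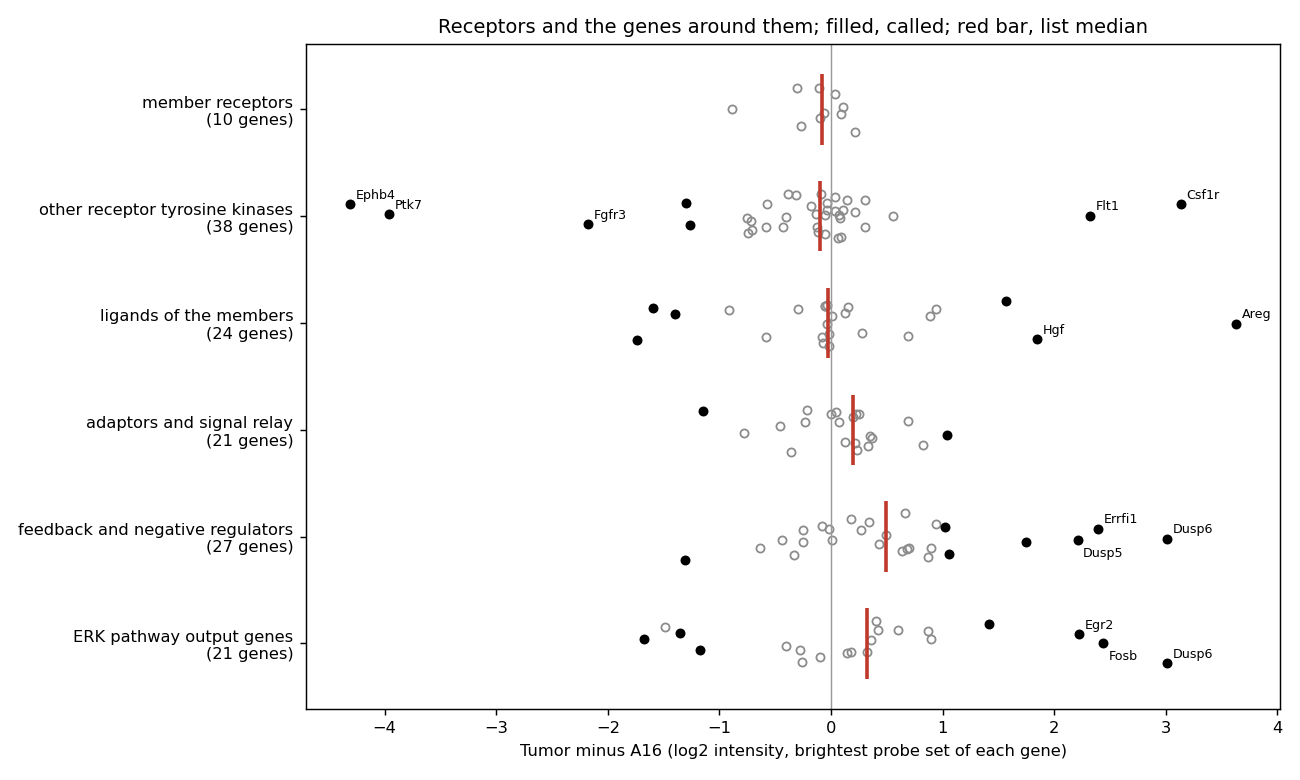
Tumor minus A16 difference in log2 intensity (horizontal axis) of each gene by its brightest probe set, for the 10 member receptors and for 5 lists of genes around them (vertical axis). Filled points were called, open points were not, and a red bar marks the list median, from -0.10 for other receptor tyrosine kinases to 0.49 for feedback and negative regulators.

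Csf1r is also a macrophage marker, and markers of cells that a tumour could contribute were therefore read on the same arrays. The summed level of 9 macrophage and leukocyte markers was 10.71 to 10.80 on Tumor arrays and 10.35 to 10.50 on A16 arrays. Csf1r itself is part of this sum, at means of 8.595 in Tumor cells and 5.457 in A16 cells. The sum is therefore no separate support for the Csf1r rise. Csf1r and Cd68 were called higher, and for these and for Fcer1g (0.33), Lyz2 (0.33), Tyrobp (0.24) and Adgre1 (0.14; 0.78 with PLIER) every Tumor array lay above every A16 array. Cd14, the brightest of the 9, went the other way. It had 9.81, 9.85 and 9.70 on the Tumor arrays, below 10.01, 10.00 and 9.86 on the A16 arrays. Itgam overlapped between the groups, at -0.13 (0.46 with PLIER). Ptprc, the defining marker of leukocytes, had means of 5.06 in Tumor cells and 5.13 in A16 cells, and Ptprc, Adgre1 and Tyrobp lay in the lowest 30% of probe sets. For 7 endothelial markers the sum was 8.26 to 8.48 on Tumor arrays and 8.03 to 8.20 on A16 arrays, with 0 called and 5 of the 7, among them Kdr, Tek and Tie1, in the lowest 30%. The 2 others, Vwf at 0.73 (limma's adjusted p = 0.0038) and Pecam1 at 0.53 (limma's adjusted p = 0.0377), lay higher on every Tumor array. Mast cell markers, which bear on Kit, summed to 8.42 to 8.53 on Tumor arrays and 8.36 to 8.55 on A16 arrays, with 0 of 7 called, and melanocyte markers to 9.20 to 9.25 and 8.89 to 9.04, with 0 of 6 called. Fibroblast markers summed to 15.67 to 15.72 on Tumor arrays and 16.30 to 16.44 on A16 arrays, with 4 of 12 called lower. The called ones were Fn1 (-1.27), Col1a2 (-1.39), Thy1 (-1.95) and Col1a1 (-3.46). Of the others, Dcn (0.44), Twist2 (0.38) and S100a4 (0.24) lay higher on every Tumor array. Vim (-0.10) and Lum (-0.57) lay lower on every one, and Col3a1 (-0.065), Prrx1 (-0.03) and Fap (-0.095) overlapped. Pericyte and smooth muscle markers, which bear on Pdgfrb, summed to 10.46 to 10.68 on Tumor arrays and 11.52 to 11.90 on A16 arrays. Of the 8, 2 were called lower, Abcc9 and Acta2. Acta2 made up most of the sum on A16 arrays, at means of 9.42 in Tumor cells and 11.02 in A16 cells. Among those not called, Des (-0.67), Kcnj8 (-0.98) and the dim Rgs5 (-0.09) lay lower on every Tumor array. Notch3 (0.39) lay higher on every one, and Cspg4 (0.135) and Myh11 (0.05) overlapped. Epithelial markers summed to 11.16 to 11.31 on Tumor arrays and 9.98 to 10.14 on A16 arrays, with 1 of 9 called higher, Krt8, which made up most of the sum at means of 11.02 in Tumor cells and 9.52 in A16 cells. The arrays carry rat probes, and how well these read transcripts of the mouse host was not tested. Marker values here are thus no measure of how many host cells were present. The part of any of these cells in the receptor values was not tested.

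Adaptors and relay proteins carry the receptor signal inward. Of 29 listed, 21 were measured. By the brightest probe set 1 was called higher and 1 lower (9.52%, beside 10.9% of all genes), with a median of 0.20 against 0.03 over all genes. Frs2, at 0.69 and not called by its brightest probe set, had a dimmer one called lower at -1.135. Sos2, an exchange factor that loads Ras, rose by 1.04 ± 0.11, and its values of 10.42, 10.48 and 10.43 on the Tumor arrays stood above 9.42, 9.47 and 9.36 on the A16 arrays. Akt2, a kinase below phosphatidylinositol 3-kinase, fell by 1.15 ± 0.13, to 8.79, 8.67 and 8.98 on the Tumor arrays, against 9.69, 10.20 and 10.06 on the A16 arrays. The other Akt2 probe sets gave -1.88, -2.60 and -0.48, of which the last was not called.

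Feedback and negative regulators of receptor signalling showed 6 genes higher and 1 lower among 27 of 33 measured (25.9%, beside 10.9% of all genes), with a median of 0.49 against 0.03 over all genes. Dusp6, a phosphatase that inactivates ERK, had 12.33, 12.60 and 12.28 on the Tumor arrays, against 9.42, 9.22 and 9.40 on the A16 arrays. It rose by 3.02 ± 0.12 on this probe set (limma's adjusted p = 2.28e-05), whereas its other 2 probe sets gave 0.21 and 0.75 and were not called. Errfi1, an inhibitor that binds the EGF receptor kinase, had 11.88, 11.75 and 11.83 on the Tumor arrays, against 9.58, 9.60 and 9.26 on the A16 arrays, a rise of 2.40 ± 0.14 (limma's adjusted p = 8.37e-05). Dusp5, which inactivates ERK in the nucleus, rose by 2.21 ± 0.14. Ptprj, a receptor phosphatase, rose by 1.75 ± 0.18 on its brightest probe set and stood at 0.03 on the other. The list's other called genes were Socs5 at 1.05, Flrt3 at 1.02 and Lrig3 at -1.31, picked once their values were known. Cbl and Dusp1 were not called by their brightest probe sets, at 0.27 and 0.34. Dimmer probe sets of both were called lower, at -1.37 and -1.02 for Cbl and -1.53 for Dusp1.

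**Figure D5:**
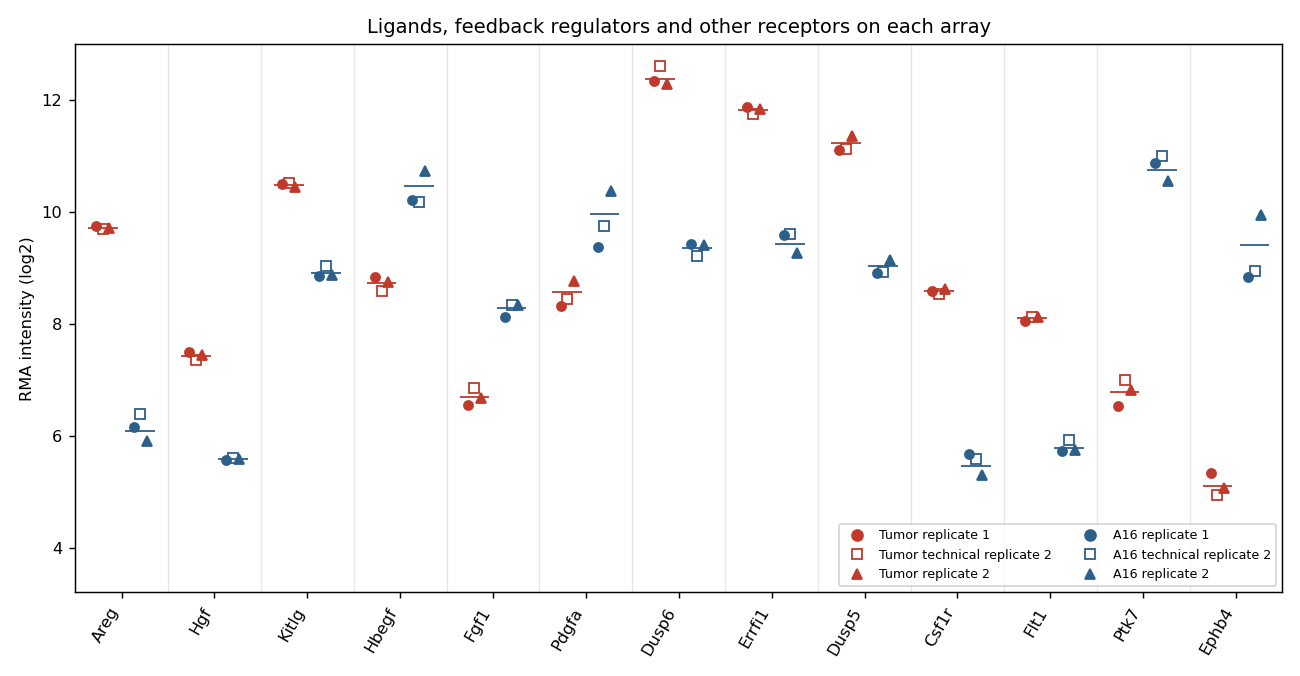
Log2 RMA intensity (vertical axis) of 13 ligands, feedback regulators and other receptors (horizontal axis) on the 3 Tumor arrays (red) and the 3 A16 arrays (blue), with a bar at the mean of the n = 2 replicates. The genes were picked from those called, so that the separation of the groups in all of them is no separate support. Areg is at 9.70 to 9.75 on Tumor arrays and 5.90 to 6.39 on A16 arrays.

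Genes known to be switched on through ERK moved both ways. By the brightest probe set 4 were higher and 3 lower among 21 measured (33.3%, beside 10.9% of all genes), with a median of 0.33 against 0.03 over all genes. Dusp6 led the rises. It stands in the feedback list as well, as do Spry2 (0.90) and Spry4 (0.18), so that the medians of the lists are not independent. Etv1, not called by its brightest probe set, had a dimmer one called higher at 1.07. Fosb, a transcription factor of the AP-1 group, rose by 2.44 ± 0.14, and Egr2, an immediate early transcription factor, by 2.23 ± 0.13 on its brightest probe set but with 0.00 on the other. Etv5, a factor induced by fibroblast growth factor signalling, fell by 1.67 ± 0.27 on its brightest probe set, with 0.53 on the other. The other called genes, named after their values were seen, were Ccnd1 at 1.42, Junb at -1.17 and Ier2 at -1.35.

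A further list held proteases and other proteins that govern the release of receptors and their ligands from the membrane. By the brightest probe set it gave 1 rise and 1 fall among 8 measured genes (25%, beside 10.9% of all genes). Adam15 rose by 1.09 ± 0.12 and Adam9 fell by 1.39 ± 0.15. Adam10 and Adam19 were not called by their brightest probe sets, at -0.28 and -0.34. Each had a dimmer probe set called lower, at -1.47 for Adam10 and -1.71 for Adam19. Adam17, the protease best known for shedding amphiregulin, had 10.68, 10.70 and 10.71 on the Tumor arrays, against 10.47, 10.57 and 10.52 on the A16 arrays. Its difference was 0.18 ± 0.11 (limma's adjusted p = 0.266). Pdgfra and Kit neighbour each other on rat chromosome 14. Of 10 measured genes around them, 1 was called (10%, beside 10.9% of all genes), Lnx1, at 1.48 ± 0.41 on a dim probe set with 5.67, 5.61 and 7.03 on the Tumor arrays, against 5.02, 4.82 and 4.79 on the A16 arrays. Every Tumor array lay above every A16 array, but the call rested on Tumor replicate 2, without which the difference was 0.79, and the other Lnx1 probe set gave 0.80 and was not called.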

How the data were processed

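RNA of F111 cells was measured on rat expression arrays, 3 Tumor and 3 A16. The 12 records are these 6 arrays, each summarised with RMA and with PLIER. According to the methods the scans were processed in GeneChip Operating Software and normalised in Avadis, and for RMA and PLIER no version is given in the sources used here. The authors deposited array intensity on a linear scale, and log2 was taken here. The lowest deposited PLIER value was 16, taken as an offset already included. RMA medians were 98.0 to 99.7 on Tumor arrays and 98.2 to 100.1 on A16 arrays. Detection calls were not used, and precision is limited by how few arrays there were.

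Of 31099 probe sets 57 were array controls, and 31042 were tested in R 4.3.3 with limma 3.58.1, whose lmFit and eBayes gave two-sided p-values that were adjusted over all of them by Benjamini-Hochberg. Log2 values of technical replicate 2 were averaged with those of replicate 1, since no further array in the group carries a technical number. Symbols came from the platform annotation, with 1 symbol for 20826 probe sets, several for 436 and none for 9780, and 20758 were matched to RefSeq by Entrez identifier. The probe set with the highest mean stood for a gene with several. The difference between probe sets of a gene was fitted with limma over 6609 pairs. Marker levels were summed on the linear scale, then logged.

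The receptors, lists and markers were chosen with earlier results of these data known. Named genes were all members and, of each other list, up to 4 called genes by size of change. Alternatives were PLIER with 2 offsets, technical replicates left out or kept as a random effect, a replicate block, a filter at the 30th percentile, quantile normalization, an intensity trend with robust variance, the mean of a gene's probe sets, a fit without variance moderation and each replicate left out. Arrays alone support no statement on protein or phosphorylation.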

Additional observations from a re-analysis of the deposited data

How the results depend on the processing

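No receptor probe set was called with RMA under any scaling, filter or variance model tried, and the exceptions came with PLIER or a left-out replicate. PLIER called 1 of 19 (Met) and 1 of 10 genes, and with an offset of 1 it called 1 of 19, the dim Egfr probe set 1385413_at at 1.24. Leaving out a replicate gave 0 to 2 called probe sets and 0 to 1 genes, and both probe sets, Met and Fgfr1 1387498_a_at, were called without A16 replicate 1. By the adjusted p alone, 2 receptor probe sets became 5 with PLIER and 0 to 5 with a replicate left out, at 0 without either Tumor replicate. The replicate block gave 0 called and 4 at the adjusted p alone. The replicate numbers share only a number, since there are 2 pairs and the labels name no shared batch, and the replicate differences of the groups correlated at 0.121 over 31042 probe sets. Without moderation of the variance 0 of 19 were called at a fold over 2, unadjusted or after Benjamini-Hochberg adjustment, and over all probe sets 3100 and 12 were, against 3694 with it. Of 9 probe set pairs, 0 of which passed, PLIER passed 2, PLIER with an offset of 1, the random effect and the replicate block 1 each, and left-out replicates 0 to 4, with 4 without A16 replicate 1. The 7 called other receptors became 11 with PLIER and 12 with an offset of 1. The 2 called relay genes became 1 without technical replicates, 4 with the gene mean, and 1 to 2 with a replicate left out (1 without A16 replicate 2). The 2 called genes of the shedding list became 1 to 2 (1 without Tumor replicate 2). The direction turned for Fgfr2 1373829_at (-0.021) and 1371179_a_at (-0.020) under quantile normalization and for Fgfr2 1370630_a_at with PLIER (0.53, and 0.62 with an offset of 1). With a replicate left out it was not settled for Egfr 1381145_at (-0.271 to 0.052), Pdgfra (-0.131 to 0.013), Pdgfrb 1370642_s_at (-0.067 to 0.273), Fgfr1 1372447_at (-0.078 to 0.266) and Fgfr2 1371179_a_at (-0.036 to 0.124). The causes were not tested. Akt2 (-0.99 without technical replicates), Sos2 (1.00 without A16 replicate 2), Adam15 (0.98 without Tumor replicate 2) and Lnx1 (limma's adjusted p = 0.127 with an intensity trend) lost their call. A lone sample left in a group is assumed to vary like the other group. Low signal limits what the Fgfr2, Kit and dimmest Egfr probe sets can show.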
